A study of Mus musculus with 24 samples.

Results

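The 9 genes described here are identity genes of inhibitory (GABA) and excitatory (glutamate) neurons, read in the ventral tegmental area (VTA), and they were chosen by name. Some of them, such as Pou4f1 and Slc17a7, are known mainly from neurons of other regions. Gad1, Gad2, Slc32a1, Gata2 and Gata3 stand for GABA neurons, and Slc17a6, Slc17a7, Slc17a8 and Pou4f1 for glutamate neurons. Each had 1 probe set annotated to that gene alone, so that 9 of the 19938 genes with a probe set of their own were followed, and every fit was run over all 23410 transcripts (probe sets with a gene in the annotation). The samples were VTA punches from male C57BL/6N mice without genetic change, aged 10 to 12 weeks, kept on standard chow and water in 12 h of light and 12 h of dark. A single array (Affymetrix Mouse Gene 1.0 ST) was run per mouse, with 4 mice at each of 6 time points given as Zeitgeber time (ZT, h after lights on): ZT0, ZT4, ZT8, ZT12, ZT16 and ZT20. The time points follow the sample labels, which are 4 h apart, whereas the study's methods speak of another interval. The study asked whether transcripts of this reward region change over the day, and the comparisons below put that question to genes of neuron identity. Values are log2 expression from robust multi-array averaging (RMA), and a difference of 1 is a doubling.

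GABA neurons make their transmitter from glutamate with glutamate decarboxylase (Gad1 encodes the form GAD67, Gad2 the form GAD65) and load it into synaptic vesicles with the vesicular transporter encoded by Slc32a1 (VGAT). Gata2 and Gata3 encode zinc finger transcription factors that specify GABA neurons of the mouse midbrain and brainstem. Glutamate neurons fill vesicles through the transporters encoded by Slc17a6 (VGLUT2), the main form in the midbrain, by Slc17a7 (VGLUT1), the main form in cortex and hippocampus, and by Slc17a8 (VGLUT3), which is found in scattered neurons, among them serotonin neurons. Pou4f1 encodes the homeodomain factor BRN3A, made in glutamate neurons of the red nucleus next to the VTA and of the habenula. In the VTA, GABA and glutamate neurons lie among the dopamine neurons and act on them, and single neurons can carry markers of more than 1 transmitter.

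RefSeq (GRCm38.p6) gave 12 promoters for the 9 genes. The 250 bases before the transcription start are shown for both decarboxylases, which make the transmitter, for Slc32a1, whose window held a site for the GATA factors among these genes, and for Pou4f1, which had the smallest p over the day. Both strands were searched for a GATA site (AGATAA or its variant AGATAG, and likewise TGATAA or its variant TGATAG), printed in capitals, and for the clock factors' E-box CACGTG, with no overlap between the 2 motifs. Gad1 lies at chr2:70561879-70562128 (+), Gad2 at chr2:22622077-22622326 (+), Slc32a1 at chr2:158610508-158610757 (+) and Pou4f1 at chr14:104468000-104468249 (-), each written 5′ to 3′ on the strand of the gene.
Gad1: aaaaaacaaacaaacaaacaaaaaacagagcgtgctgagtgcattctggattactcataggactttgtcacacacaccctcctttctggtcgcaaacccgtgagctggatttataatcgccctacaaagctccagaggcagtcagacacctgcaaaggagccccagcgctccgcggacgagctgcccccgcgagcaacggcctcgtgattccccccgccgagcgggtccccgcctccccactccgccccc
Gad2: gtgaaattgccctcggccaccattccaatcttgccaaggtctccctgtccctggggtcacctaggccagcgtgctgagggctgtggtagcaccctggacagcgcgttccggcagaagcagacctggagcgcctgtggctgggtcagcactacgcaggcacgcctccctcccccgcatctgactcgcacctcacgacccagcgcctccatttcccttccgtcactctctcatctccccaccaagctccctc
Slc32a1: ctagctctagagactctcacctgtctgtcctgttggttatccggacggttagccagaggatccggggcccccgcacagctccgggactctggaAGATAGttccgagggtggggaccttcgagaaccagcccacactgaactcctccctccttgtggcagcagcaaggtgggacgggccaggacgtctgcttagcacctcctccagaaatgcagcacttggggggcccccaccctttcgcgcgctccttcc
Pou4f1: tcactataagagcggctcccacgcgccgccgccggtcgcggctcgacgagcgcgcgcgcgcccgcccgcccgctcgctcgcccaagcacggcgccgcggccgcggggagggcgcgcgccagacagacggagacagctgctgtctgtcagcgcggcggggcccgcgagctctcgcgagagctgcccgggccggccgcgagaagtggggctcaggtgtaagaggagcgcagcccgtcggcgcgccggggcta
A GATA site was present in 2 of the 12 promoters, that of Slc32a1 (AGATAG, starting 157 bases before the transcription start) and 1 of Slc17a6 (AGATAG, starting 111 bases before it), against 26.5% of the 32851 promoters in the table. The E-box was in 0 of the 12 promoters, against 6.02% of all promoters. These letter matches are a description of the windows only.

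Array medians lay between 6.71 and 6.79, and Pearson correlations between arrays, taken across transcripts, between 0.962 and 0.995. ZT0 replicate 4 stood apart, with a median correlation to the other arrays of 0.970, against 0.988 or more for every other array. In it, 327 transcripts were lower by over 1 (log2) than the average of its 3 companion arrays at ZT0 and 60 were higher, against at most 17 either way in any other array. Its dopamine neuron markers averaged 7.41 (7.43 to 7.64 in the other ZT0 arrays), its microglia markers 6.61 (6.72 to 6.84), its endothelial markers 7.01 (7.13 to 7.19), its mammillary and hypothalamic markers 6.29 (6.10 to 6.21) and its cortical and hippocampal markers 6.64 (6.53 to 6.60). Thalamic markers averaged 7.16 (7.21 to 7.33), serotonin markers 7.61 (7.52 to 7.58) and cholinergic markers 6.67 (6.48 to 6.66). Its astrocyte and oligodendrocyte markers lay among those of the other ZT0 arrays. Against the arrays of all time points, only its dopamine neuron markers (7.42 or more elsewhere) and endothelial markers (7.04 or more elsewhere) lay outside the range. Among the 9 genes it held the highest of all 24 values for Slc17a7 (8.48) and Slc17a8 (6.54) and the lowest for Gata3 (6.59). Results that rest on it are given with and without it. As a check of the labelled tissue, the defining dopamine neuron genes were read over all 24 arrays, and Th (tyrosine hydroxylase) ranged from 7.43 to 8.21 and Slc6a3 (the dopamine transporter) from 8.01 to 9.18. In punches of mixed tissue, fewer cells of a type and less RNA per cell cannot be told apart.

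None of the 9 genes was called rhythmic. For a 24-h cosine curve, 0 of 9 passed an adjusted p under 0.05 (limma, Benjamini-Hochberg over all transcripts), against 7 of 23410 transcripts (0.0299%). With the 6 time points as a factor, 0 of 9 passed as well, against 1 transcript (0.00427%). At an unadjusted p under 0.05, 2 of 9 passed in the cosine fit (Slc17a8 and Pou4f1), against 8.91% of transcripts. The median fitted peak-to-trough difference of the 9 genes was 0.10 on the log2 scale, and that of all transcripts 0.10.

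**Figure D1:**
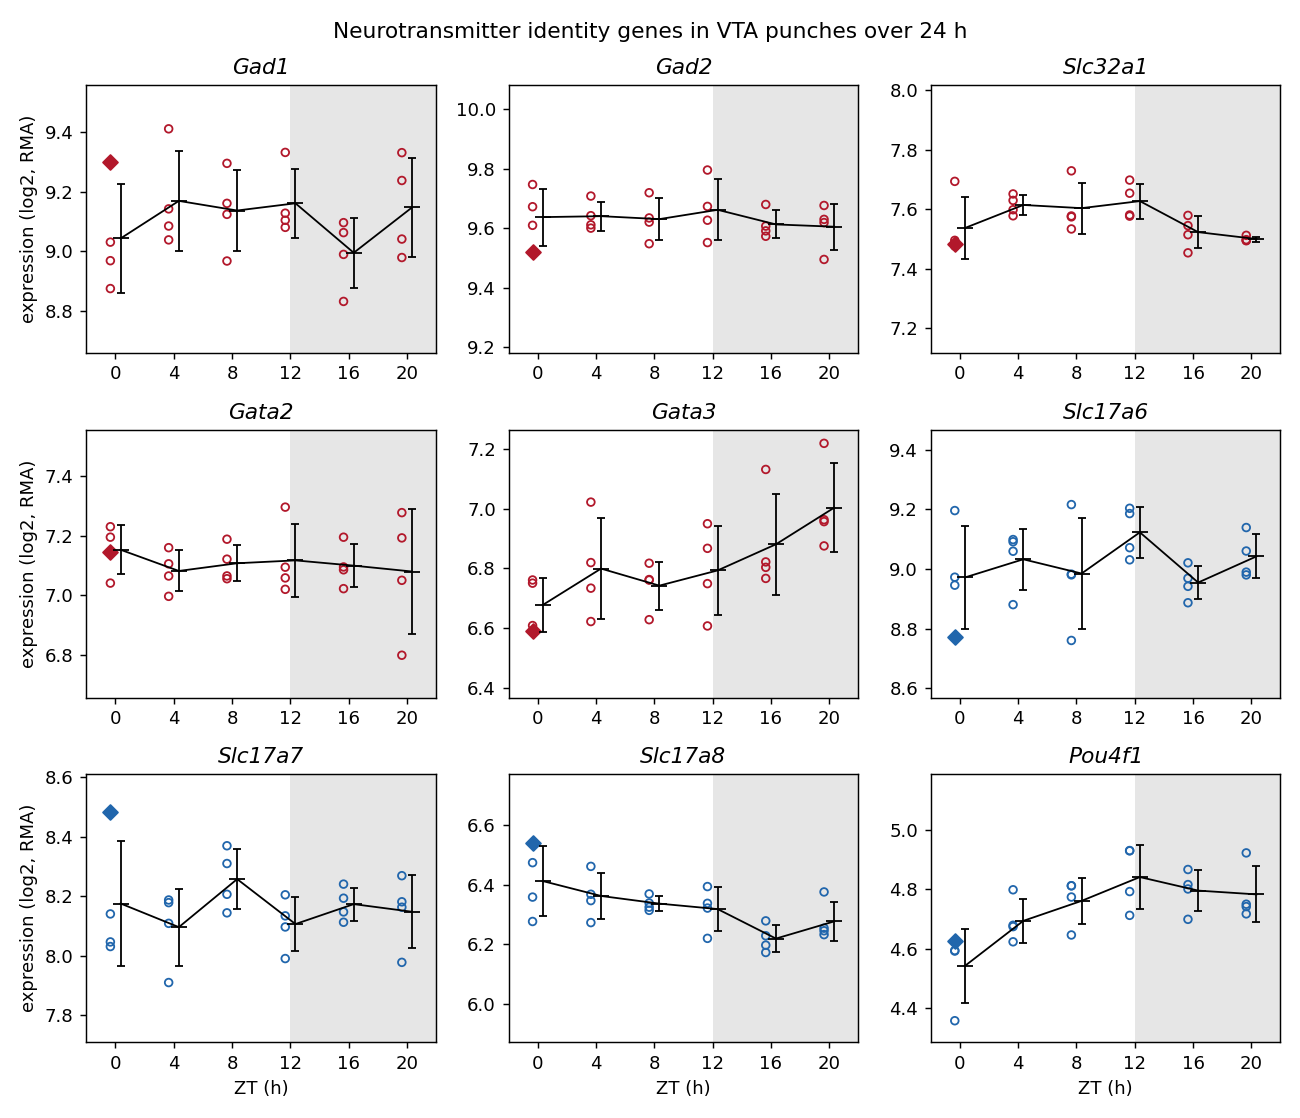
Expression (log2, RMA) of the 9 genes against ZT (h), with 1 circle per mouse, a filled diamond for ZT0 replicate 4, and the mean ± SD of 4 mice in black. Red marks genes of GABA neurons, blue those of glutamate neurons, and the dark phase is shaded. The time point means of Gad2 span 0.06, those of Pou4f1 0.30 and those of Gata3 0.33.

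Of the GABA synthesis genes, Gad2 had the smaller range over time. Its time point means lay between 9.61 (ZT20) and 9.66 (ZT12), and single mice between 9.50 and 9.80. The fitted peak-to-trough difference was 0.03 ± 0.05 (SE; adjusted p = 0.950, limma). Gad1 averaged 9.04 ± 0.18 at ZT0, 9.17 ± 0.17 at ZT4, 9.14 ± 0.13 at ZT8, 9.16 ± 0.12 at ZT12, 8.99 ± 0.12 at ZT16 and 9.15 ± 0.16 at ZT20 (SD, n = 4 each), so that its lowest mean came at ZT16 and the mice of every time point overlapped with those of every other. At ZT0, 3 mice lay at 8.87, 8.97 and 9.03, and ZT0 replicate 4 at 9.30. The fitted difference of Gad1 was 0.10 ± 0.08 (adjusted p = 0.868).

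Slc32a1, the vesicular GABA transporter, varied less between mice than Gad1. The 4 mice had 7.48, 7.50, 7.69 and 7.48 at ZT0, and 7.65, 7.60, 7.63 and 7.58 at ZT4. At ZT8 they had 7.53, 7.73, 7.58 and 7.58, and at ZT12 7.65, 7.58, 7.58 and 7.70. At ZT16 they had 7.45, 7.52, 7.58 and 7.55, and at ZT20 7.50, 7.49, 7.50 and 7.51. All mice of ZT4, ZT8 and ZT12 were above all those of ZT20, whereas ZT0 overlapped with every time point. The differences of ZT20 from ZT4, ZT8 and ZT12 had an unadjusted p of 0.0858, 0.118 and 0.0573 and an adjusted p of 0.857 or more (limma). How many of all transcripts separate in this way was not counted, here or for the genes below. The curve had a peak-to-trough difference of 0.13 ± 0.05 (1.09-fold) with a peak at ZT 7.98 ± 1.48 h (SE), an unadjusted p of 0.0502 and an adjusted p of 0.562 (limma).

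Of the GATA factors, Gata2 had time point means between 7.08 (ZT20) and 7.15 (ZT0) and a fitted difference of 0.01 ± 0.07 (adjusted p = 0.997, limma). Gata3 had 6.76, 6.61, 6.75 and 6.59 in the 4 mice of ZT0, and 6.82, 6.62, 7.02 and 6.73 at ZT4. At ZT8 it had 6.63, 6.82, 6.76 and 6.76, and at ZT12 6.75, 6.61, 6.87 and 6.95. At ZT16 it had 6.77, 6.80, 6.82 and 7.13, and at ZT20 7.22, 6.96, 6.88 and 6.96. The mice of ZT20 were all above those of ZT0 and ZT8, and those of ZT16 all above those of ZT0. Its fitted difference was 0.20 ± 0.08 (1.15-fold) with a peak at ZT 17.7 ± 1.62 h (unadjusted p = 0.0792 and adjusted p = 0.605, limma). With the 6 time points as a factor the unadjusted p was 0.0380 and the adjusted p 0.972. No test of the difference between the courses of Gata2 and Gata3 was run.

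Among the vesicular glutamate transporters, Slc17a6 had its highest mean at ZT12 (9.12 ± 0.09) and its lowest at ZT16 (8.95 ± 0.06, SD, n = 4 each), with mice between 8.76 and 9.22 over the day. Slc17a7 had its highest mean at ZT8 (8.26 ± 0.10) and its lowest at ZT4 (8.10 ± 0.13). The adjusted p of the cosine curve was 0.933 for Slc17a6 and 0.986 for Slc17a7 (limma). The Slc17a6 values of all ZT12 mice (9.03 or more) were above those of all ZT16 mice (9.02 or less). The difference for ZT16 minus ZT12 was -0.17 ± 0.09 (SE; unadjusted p = 0.0686, adjusted p = 0.9999, limma). For Slc17a7, ZT8 and ZT4 overlapped.

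Slc17a8, the third of these transporters, had its highest values around lights on. The 4 mice had 6.36, 6.28, 6.47 and 6.54 at ZT0, and 6.35, 6.27, 6.37 and 6.46 at ZT4. At ZT8 they had 6.32, 6.31, 6.34 and 6.37, and at ZT12 6.34, 6.39, 6.22 and 6.32. At ZT16 they had 6.17, 6.23, 6.28 and 6.20, and at ZT20 6.25, 6.25, 6.38 and 6.23. All mice of ZT8 were above all those of ZT16 (unadjusted p = 0.0909, adjusted p = 0.999, limma), and ZT0 and ZT16 met at 6.28. The time point means followed the order ZT0, ZT4, ZT8, ZT12, ZT20 and ZT16, with 6.41 at ZT0 and 6.22 at ZT16. The curve gave 0.15 ± 0.05 (1.11-fold) with a peak at ZT 3.48 ± 1.40 h, an unadjusted p of 0.0363 and an adjusted p of 0.535 (limma), and 0.13 (adjusted p = 0.551) without ZT0 replicate 4.

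Pou4f1 had the smallest p of the 9 genes. The 4 mice had 4.36, 4.59, 4.59 and 4.63 at ZT0, and 4.68, 4.62, 4.80 and 4.67 at ZT4. At ZT8 they had 4.77, 4.81, 4.81 and 4.65, and at ZT12 4.71, 4.79, 4.93 and 4.93. At ZT16 they had 4.87, 4.82, 4.80 and 4.70, and at ZT20 4.74, 4.75, 4.72 and 4.92. The mice of ZT0 were below all mice of ZT8, ZT12, ZT16 and ZT20. The curve gave 0.24 ± 0.06 (1.18-fold) with a peak at ZT 13.2 ± 1.02 h, an unadjusted p of 0.00334, which ranked 202 among all transcripts, and an adjusted p of 0.385 (limma). The probe set lay below the median transcript level in all arrays, as did that of Slc17a8, and the table gives no call of detection. How far its signal stood above background was not examined.

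In the order of the time point means, no 2 neighbours of any of the 9 genes differed, also at an unadjusted p under 0.05. Over all 15 differences between time points, 0 of 135 differences of the 9 genes passed an adjusted p under 0.05 (limma, adjusted within each difference), against 14 of 351150 (0.00399%). At an unadjusted p under 0.05, 11 of 135 (8.15%) passed, against 5% of all. They belonged to 3 genes. Pou4f1 was higher than at ZT0 at ZT8 by 0.22, at ZT12 by 0.30, at ZT16 by 0.25 and at ZT20 by 0.24. Gata3 at ZT20 was higher by 0.33 than at ZT0, 0.20 than at ZT4, 0.26 than at ZT8 and 0.21 than at ZT12, and at ZT16 by 0.20 than at ZT0. Slc17a8 differed by -0.19 between ZT16 and ZT0 and by -0.14 between ZT16 and ZT4. The adjusted p of these 11 was 0.231 or more.

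The rest phase was then set against the active phase by comparing the early light (ZT0 and ZT4, 8 mice) with the early dark (ZT12 and ZT16, 8 mice). None of the 9 genes passed (0 of 9 at an adjusted p under 0.05), against 8 of 23410 transcripts (0.0342%), and 2 of 9 passed an unadjusted p under 0.05, against 10.2%. The difference was above 0 for 5 genes and below 0 for 4. Its median absolute size was 0.03 on the log2 scale in the 9 genes and 0.06 in all transcripts.

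Pou4f1 ranged from 4.36 to 4.80 with a median of 4.63 in the early light, and from 4.70 to 4.93 with a median of 4.81 in the early dark. Of the 8 early light arrays, 7 were below all 8 early dark arrays, and the groups overlapped through the array of ZT4 at 4.80. The share of all transcripts that separate as far in this comparison was not counted, here or for Slc17a8. The means were 4.62 ± 0.12 in the early light and 4.82 ± 0.09 in the early dark (SD, n = 8 each), a difference of -0.20 (95% interval -0.31 to -0.09). The unadjusted p was 0.000844 and the adjusted p 0.215 (limma), and without ZT0 replicate 4 the difference was -0.21 (adjusted p = 0.164). Slc17a8 ranged from 6.27 to 6.54 with a median of 6.36 in the early light, and from 6.17 to 6.39 with a median of 6.25 in the early dark. Of the early light arrays 3 were above all of the early dark, and the other 5 overlapped with it. The difference was 0.12 (95% interval 0.02 to 0.22, unadjusted p = 0.0187, adjusted p = 0.393), and 0.10 without ZT0 replicate 4 (adjusted p = 0.449).

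The other 7 genes had differences whose 95% intervals held 0. For Gad1 the difference was 0.03 (-0.12 to 0.18), for Gad2 0.00 (-0.10 to 0.10) and for Slc32a1 0.00 (-0.09 to 0.09). For Gata2 it was 0.01 (-0.11 to 0.13) and for Gata3 -0.10 (-0.24 to 0.04). Slc17a6 had -0.04 (-0.17 to 0.09) and Slc17a7 -0.00 (-0.14 to 0.13). Without ZT0 replicate 4 the difference of Gad1 was -0.01, that of Slc17a7 -0.06 and that of Slc17a6 -0.00.

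**Figure D2:**
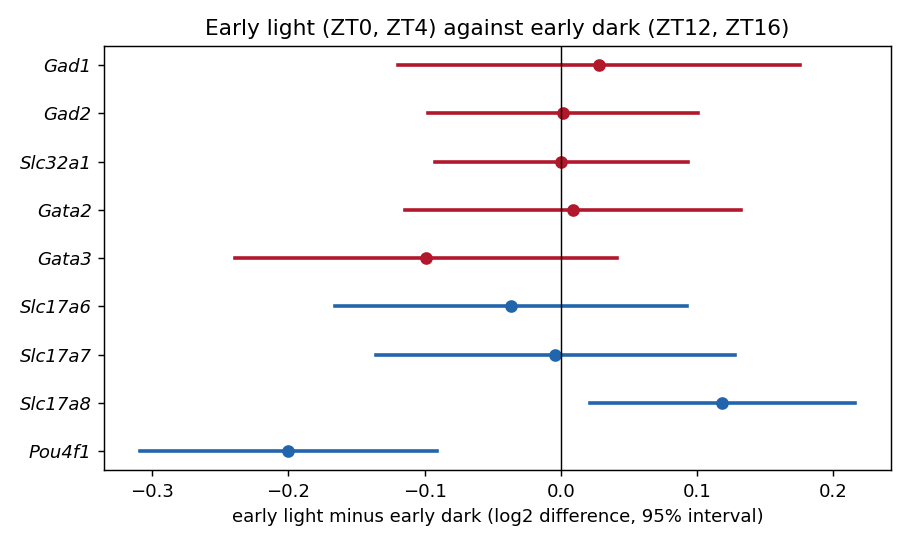
Difference in log2 expression between the early light and the early dark (8 mice each) for the 9 genes, with dots for the estimate and bars for its 95% interval from the fit of all 24 arrays. Red marks GABA and blue glutamate neuron genes. The bars of Slc17a8 and Pou4f1 lie off 0 before adjustment over all transcripts.

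Setting ZT4 and ZT8 against ZT16 and ZT20, 0 transcripts of 23410 passed an adjusted p under 0.05 (1800, or 7.69%, at an unadjusted p under 0.05). Here Gata3 had -0.17 (unadjusted p = 0.0184), Slc17a8 0.10 (0.0415) and Slc32a1 0.10 (0.0408), whereas Pou4f1 had -0.06 (0.255). With all 3 light time points (ZT0, ZT4 and ZT8) against the 3 others, Gata3 had -0.15 (adjusted p = 0.308), Slc17a8 0.10 (0.344) and Pou4f1 -0.14 (0.230), against 6 transcripts called (0.0256%). These comparisons share arrays with that of the early light.

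Cell type markers were read for the same groups, and none of the 10 marker lists held a gene that passed in either fit. By the median difference of their genes, thalamic markers (4 genes, -0.10) and endothelial markers (6 genes, 0.06) lay farthest from 0 among the 10 lists. Thalamic markers averaged 7.16 to 7.34 with a median of 7.25 over the early light arrays and 7.10 to 7.49 with a median of 7.34 over those of the early dark. Endothelial markers averaged 7.01 to 7.20 in the early light and 7.04 to 7.15 in the early dark, and 7 of the 8 early light arrays, all but ZT0 replicate 4, lay at 7.13 or more, while 7 of the 8 early dark arrays lay at 7.10 or less. Microglia markers averaged 6.61 to 6.84 with a median of 6.70 in the early light and 6.63 to 6.77 with a median of 6.67 in the early dark. As for endothelial markers, 7 of the 8 early light arrays, all but ZT0 replicate 4, lay above all early dark arrays but the highest. For microglia markers the lowest of these 7 was at 6.6754 and the second highest early dark array at 6.6746. The same count was 0 to 4 in the other marker lists. How often other sets of genes separate in this way was not counted. The groups overlapped in each of these lists. Astrocyte markers (6 genes, among them Gfap and Aqp4) averaged 8.69 to 8.85 over the early light arrays and 8.63 to 8.88 over those of the early dark. Oligodendrocyte markers (7 genes, among them Mbp and Mog) averaged 9.17 to 9.34 in the early light and 9.15 to 9.32 in the early dark. Markers of serotonin neurons, a cell type that can express Slc17a8, averaged 7.52 to 7.80 in the early light and 7.35 to 7.71 in the early dark. The part of these cells in the differences of Slc17a8 and Pou4f1 was not tested.

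Between mice of 1 time point the 9 genes varied to unequal degrees. The residual SD, after the time point means were removed, was 0.0656 for Slc32a1, 0.0733 for Slc17a8 and 0.0765 for Gad2, and smaller SDs were found in only 0.863%, 1.91% and 2.69% of transcripts in that order. Pou4f1 had an SD of 0.0933 (10.9% of transcripts were smaller), Gata2 0.115 (30.7%), Slc17a6 0.123 (39.7%), Slc17a7 0.128 (44.4%), Gata3 0.140 (56.7%) and Gad1 0.149 (65.3%). The median over all transcripts was 0.133. The 2 decarboxylases thus lay apart in spread, with Gad1 above and Gad2 below that median. Time point accounted for 59.1% of the variance of Pou4f1, 48.3% of Slc17a8, 42.9% of Slc32a1 and 42.6% of Gata3, against a median of 19.8% over all transcripts, and for 5.76% to 21.8% in the other 5 genes. Such a share lies above 0 even where time has no effect. With the time points as a factor, the unadjusted p was 0.00776 for Pou4f1, 0.109 for Slc17a8, 0.251 for Slc32a1 and 0.0380 for Gata3 (limma).

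The genes were next compared between mice, as deviations from the time point mean over 24 arrays. Of the 36 pairs, 20 had a positive and 16 a negative correlation, and the median r was 0.02. None of the 36 passed an adjusted p under 0.05 with Pearson's r (6 at an unadjusted p, permutation of arrays within time points) or with Spearman's rho (4 at an unadjusted p). Pairs within the GABA genes had a median r of 0.05 (7 of 10 positive), pairs of a GABA and a glutamate gene 0.02 (11 of 20 positive) and pairs within the glutamate genes -0.08 (2 of 6 positive). Correlations among genes of 1 transmitter were thus mixed in sign.

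**Figure D3:**
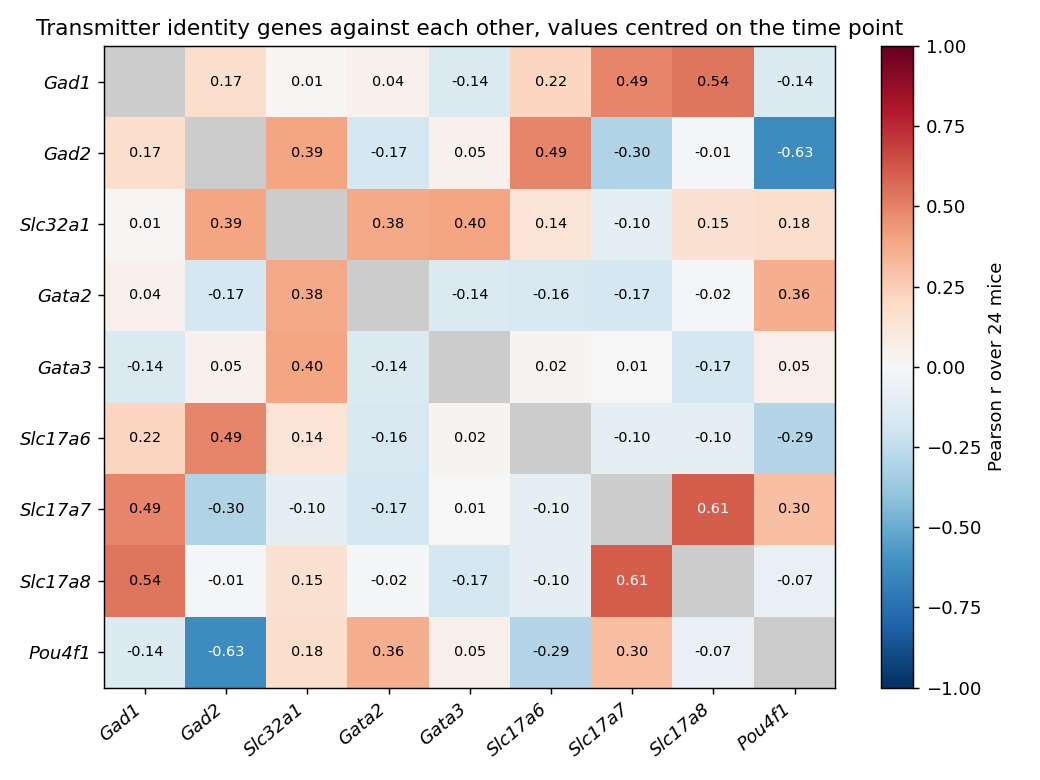
Pearson r of the deviations from the time point mean between each pair of the 9 genes over 24 mice, on a colour scale from -1 to 1. The lowest is that of Gad2 with Pou4f1 (-0.63) and the highest that of Slc17a7 with Slc17a8 (0.61).

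Gad2 and Pou4f1 deviated in opposite directions, with r = -0.63 (permutation p = 0.009, adjusted p = 0.237 over 36 pairs) and rho = -0.66 (permutation p = 0.00340, adjusted p = 0.122). The r was -0.54 without the 2 arrays farthest from the median of Gad2, -0.60 without ZT0 replicate 4, and -0.22 after a further quantile normalization of the arrays. The width of an array's value distribution moved with both genes, a relation looked for after the data had been seen. The SD over transcripts lay between 1.37 and 1.45 in the early light arrays, with a median of 1.41, and between 1.36 and 1.42 in the early dark arrays, with a median of 1.39. Its deviations correlated with those of Gad2 at r = 0.79 (permutation p = 0.000300, adjusted p = 0.00270 over 9 genes; rho = 0.84, permutation p = 7e-05, adjusted p = 0.000630) and with those of Pou4f1 at r = -0.62 (permutation p = 0.00703, adjusted p = 0.0316; rho = -0.59, permutation p = 0.0102, adjusted p = 0.0458). Without the 2 farthest arrays the r was 0.79 for Gad2 and -0.54 for Pou4f1. The part of this width in the relation between Gad2 and Pou4f1 was not tested further. For the other 7 genes r lay between -0.30 and 0.43 (permutation p of 0.0809 or more for Pearson's r). The highest of these was that of Slc17a6, with r = 0.43 (adjusted p = 0.243) and rho = 0.53 (permutation p = 0.0227, adjusted p = 0.0681), and its r was 0.27 without the 2 farthest arrays.

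Slc17a7 and Slc17a8 deviated together, at r = 0.61 (permutation p = 0.0196, adjusted p = 0.237) and rho = 0.50 (permutation p = 0.0348, adjusted p = 0.326). This r was 0.43 without the 2 farthest arrays and 0.45 without ZT0 replicate 4, which was the highest array for both genes. Gad1 and Slc17a8 had r = 0.54 (permutation p = 0.0280, adjusted p = 0.237) and rho = 0.40 (permutation p = 0.101, adjusted p = 0.509), and the r was 0.33 without the 2 farthest arrays. Gad2 and Slc17a6 had r = 0.49 (permutation p = 0.0409, adjusted p = 0.246) and rho = 0.49 (permutation p = 0.0362, adjusted p = 0.326), with 0.40 without the 2 farthest. The transporter Slc32a1 had r = 0.38 with Gata2 (permutation p = 0.0211) and 0.40 with Gata3 (permutation p = 0.0329), both with an adjusted p of 0.237. The corresponding rho was 0.37 with Gata2 (permutation p = 0.0709, adjusted p = 0.509) and 0.48 with Gata3 (permutation p = 0.0259, adjusted p = 0.326). Without the 2 farthest arrays these r were 0.31 and 0.40. The pairs were also run with quantile normalization, without centring and with the replicate number as a block. Over these 3 settings r was 0.28 to 0.46 for Slc32a1 with Gata2 and 0.003 to 0.43 with Gata3. It was 0.35 to 0.59 for Slc17a7 with Slc17a8, 0.30 to 0.52 for Gad1 with Slc17a8 and 0.33 to 0.49 for Gad2 with Slc17a6.

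**Figure D4:**
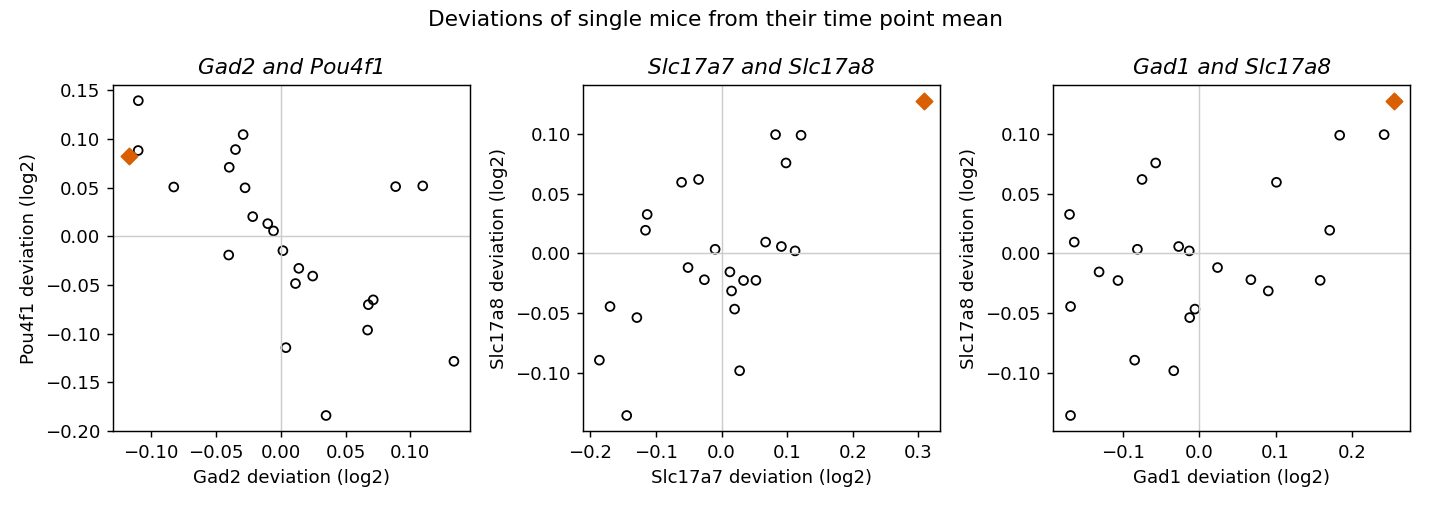
Deviation of each mouse from its time point mean (log2) for Gad2 and Pou4f1, Slc17a7 and Slc17a8, and Gad1 and Slc17a8, with 1 circle per mouse and ZT0 replicate 4 as an orange diamond. That array lies at the upper right end in the 2 pairs with Slc17a8.

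The 2 decarboxylases had a low correlation. Gad1 and Gad2 had r = 0.17 (permutation p = 0.480, adjusted p = 0.969) and rho = 0.12 (permutation p = 0.622, adjusted p = 0.961). In ZT0 replicate 4 Gad1 was the highest of the ZT0 mice (9.30) and Gad2 the lowest (9.52). Without that array r was 0.46 (permutation p = 0.0508, adjusted p = 0.366). Likewise, Gad1 and Slc17a6 had r = 0.22 over all arrays and 0.53 without it (permutation p = 0.0189, adjusted p = 0.340).

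Marker lists of 10 cell types were set against the 9 genes in the same way, to show which neighbouring tissue or cells moved with them. Of the 90 relations 0 passed an adjusted p under 0.05, and 12 an unadjusted p. Gad1 correlated most with oligodendrocyte markers (r = 0.69, permutation p = 0.000980, adjusted p = 0.0648; rho = 0.67, permutation p = 0.00165, adjusted p = 0.101). Gad2 followed markers of microglia (r = 0.67, permutation p = 0.00184, adjusted p = 0.0648), of astrocytes (r = 0.60, adjusted p = 0.120) and of oligodendrocytes (r = 0.58, adjusted p = 0.120), and ran against mammillary and hypothalamic markers (r = -0.66, adjusted p = 0.103). Slc17a6 ran against cortical and hippocampal markers (r = -0.65, permutation p = 0.00216, adjusted p = 0.0648) and mammillary and hypothalamic markers (r = -0.67, adjusted p = 0.118), and followed markers of endothelial cells (r = 0.64, adjusted p = 0.130) and of astrocytes (r = 0.49, adjusted p = 0.130). The rho of Slc17a6 with endothelial markers was 0.43 (permutation p = 0.0667, adjusted p = 0.353). Pou4f1 ran against markers of astrocytes (r = -0.55, adjusted p = 0.130) and of oligodendrocytes (r = -0.46, adjusted p = 0.323). Slc17a8 had r = 0.40 with serotonin neuron markers (permutation p = 0.0561, adjusted p = 0.388). The rho of that relation was 0.44 (permutation p = 0.0400, adjusted p = 0.300). After a further quantile normalization of the arrays, 0 of the 90 relations passed. The r of Gad2 was then 0.17 with astrocyte, 0.34 with oligodendrocyte, 0.60 with microglia and -0.50 with mammillary and hypothalamic markers. In that setting Gad1 had 0.60 with oligodendrocyte markers and Slc17a6 -0.58 with cortical and hippocampal markers. Pou4f1 then had -0.36 with astrocyte and -0.06 with oligodendrocyte markers.

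**Figure D5:**
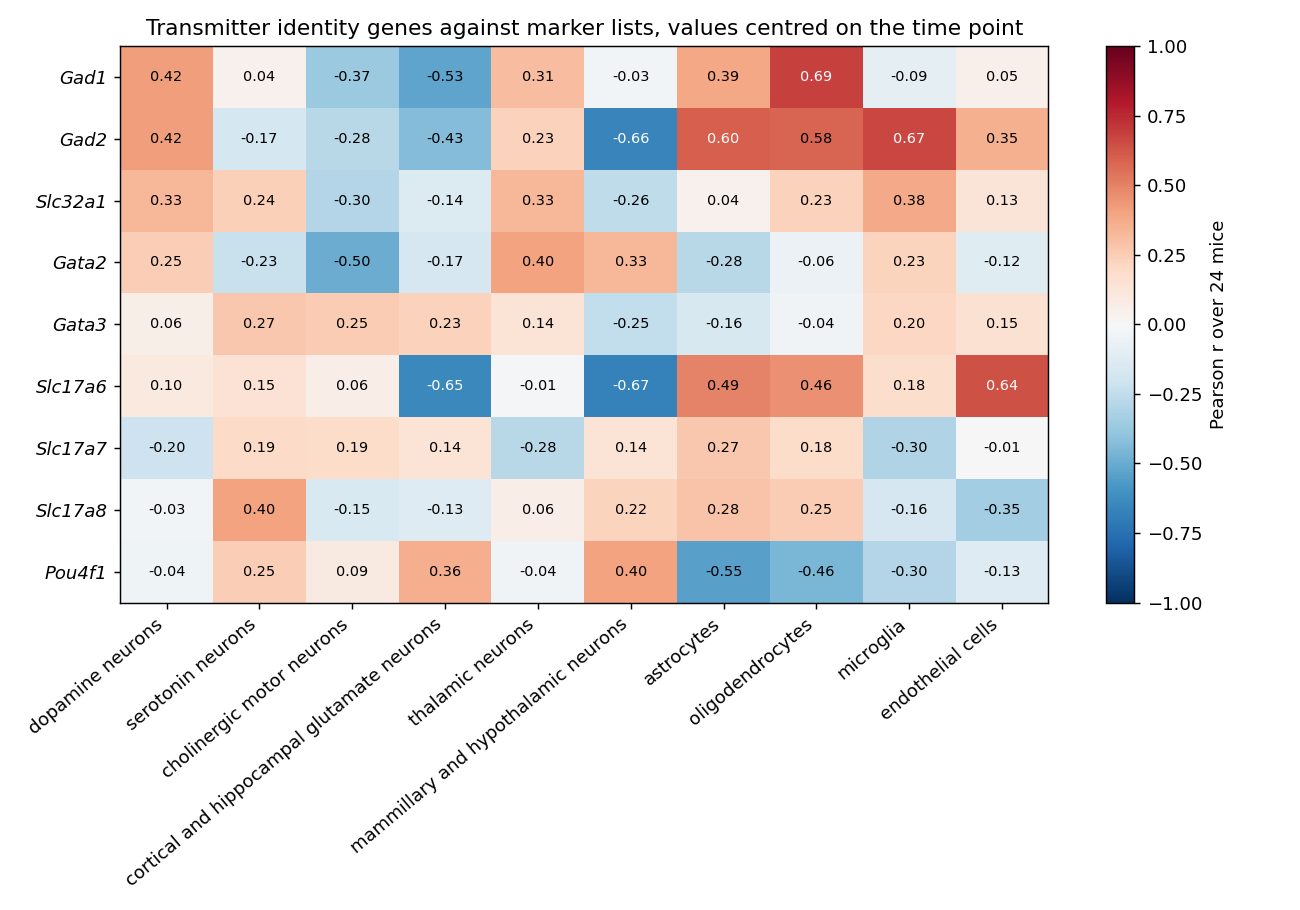
Pearson r over 24 mice between each of the 9 genes (rows) and the mean of each marker list (columns), after the time point means were removed, on a colour scale from -1 to 1. Gad1, Gad2 and Slc17a6 hold most of the strong cells, and the 20 cells of Gata3 and Slc17a7 lie between -0.30 and 0.27.

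Without ZT0 replicate 4, 4 of the 90 relations passed an adjusted p under 0.05, all with an adjusted p of 0.0369 (permutation). Gad1 had r = -0.75 with cortical and hippocampal markers (-0.53 over all arrays), 0.71 with oligodendrocyte markers and 0.68 with dopamine neuron markers (0.42 over all arrays), and Gad2 had 0.71 with oligodendrocyte markers. With Spearman's rho, 1 passed, that of Gad1 with cortical and hippocampal markers (rho = -0.80, adjusted p = 0.0207). In the arrays that remain, higher Gad1 went with higher dopamine neuron and oligodendrocyte markers and with lower cortical and hippocampal markers. The 5 cortical and hippocampal genes had mean levels from 4.66 (Neurod6) to 7.68 (Emx1). How far they stood above background was not examined. Over all 24 arrays their relation with Gad1 had an adjusted p of 0.130 (permutation).

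The genes whose deviations were most like those of each of the 9 were sought among 9478 genes at or above the median level, as a description over 24 arrays that share their normalization. For Gad1 they were Ndrg2 (r = 0.92), Dpysl2 (0.89) and Gde1 (0.89), and for Gad2 Ubr1 (0.88), Ccnh (0.86) and Asah2 (0.85). For Slc17a6 they were Etnk1 (0.89), Rasgrf2 (0.83) and Fam171b (0.79), for Slc17a7 Ripor1 (0.87), Rnf220 (0.85) and Kcnh2 (0.84), and for Slc17a8 Spats2l (0.82), Rplp0 (0.79) and Vmn1r208 (0.76). Pou4f1 was nearest to Alkbh4 (0.80), Bicra (0.77) and Ubtd2 (0.76). The values were lower for Slc32a1, with Rbsn (0.71), Cnot9 (0.70) and Ghr (0.68), for Gata2, with Kazn (0.70), Peli3 (0.69) and Marchf4 (0.65), and for Gata3, with Ccdc190 (0.74), Samd5 (0.72) and Lclat1 (0.72). None of the 9 genes was among the 3 nearest of another. Of these 27 genes, 14 were also among the 3 nearest without ZT0 replicate 4. For Slc17a7 the nearest were then Fam20b (0.83), Tmem44 (0.80) and Kcnh2 (0.77), with Ripor1 at 0.76, whereas for Pou4f1 they were the same 3. Without that array Fam171b ranked 23 for Slc17a6, Marchf4 ranked 14 for Gata2 and Asah2 ranked 11 for Gad2.

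Around these genes, 7 lists of GABA and glutamate pathway genes held 82 genes, of which 72 were measured by a probe set of their own. None of the 72 passed in the early light comparison or in the cosine fit (0 in both directions, against 0.0342% and 0.0299% of all transcripts). In the early light comparison 3 were higher and 4 lower at an unadjusted p under 0.05 (against 4.67% and 5.52% of all transcripts), and the median difference over the 72 was -0.01, that of all transcripts -0.01.

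Of 14 measured GABA receptor subunits, 13 had a lower mean in the early light and 1 a higher mean, against 47.5% of all transcripts with a higher mean. At an unadjusted p under 0.05 (limma), 2 were lower (against 5.52% of all transcripts) and 1 higher (against 4.67%). The median difference was -0.07. It was -0.02 without ZT0 replicate 4 and -0.11 after a further quantile normalization. The exception was Gabrd, the delta subunit of extrasynaptic GABA-A receptors, with means of 6.88 in the early light and 6.69 in the early dark and a difference of 0.20 ± 0.05 (SE; unadjusted p = 0.00114, adjusted p = 0.215, limma). Gabra4, an alpha subunit that assembles with it, had means of 6.32 in the early light and 6.54 in the early dark, a difference of -0.21 ± 0.06 (unadjusted p = 0.00216, adjusted p = 0.255). The difference between Gabrd and Gabra4 was not tested.

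The other lists had median differences between -0.01 and 0.04. Without ZT0 replicate 4 they lay between -0.04 and 0.01. In that setting the median was -0.04 for the transcription factors of midbrain GABA neurons (0.00 over all arrays), 0.01 for glutamate synthesis and uptake (0.04) and -0.00 for GABA breakdown and uptake (0.02). Among genes of GABA breakdown and uptake (5 of 6 measured), the transporters Slc6a12 and Slc6a13 had differences of 0.14 each (adjusted p = 0.457 and 0.582). Among the transcription factors of midbrain GABA neurons (10 of 11 measured), Lhx5 had -0.22 ± 0.09 (adjusted p = 0.380) and Sox14 0.11 (0.556). In the subclass genes of GABA neurons (10 of 10), Pvalb, the calcium buffer parvalbumin, had 0.09 and the neuropeptide gene Cck -0.10 (adjusted p = 0.738 and 0.755). Among the genes of glutamate synthesis and uptake (10 of 12), Got1, an aspartate aminotransferase, had 0.17 (adjusted p = 0.411) and Slc1a3, a glial glutamate transporter, -0.08 (0.582). For the ionotropic receptor subunits (16 of 18), Grin2d of the NMDA receptor had -0.17 (adjusted p = 0.419) and Grin3a -0.07 (0.632). For the metabotropic receptors (7 of 8), Grm4 had 0.07 and Grm7 -0.06 (adjusted p = 0.670 and 0.704).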

How the data were processed

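VTA punches were measured on 1 array per mouse. The authors deposited 1 table of log2 values made with RMA in R 2.13.1 (submitters' processing notes), which equalizes the distributions of the probes between arrays before they are summarised, so that small differences in scale can remain. Of its 35556 probe sets, 23410 were annotated to at least 1 gene and tested. Gene symbols were updated through the RefSeq table of GRCm38.p6 (21698 probe sets matched). Where a gene has several probe sets of its own, that with the highest mean was used.

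Limma 3.58.1 in R 4.3.3 was used to fit a 24-h cosine curve and the 6 time points as groups, with all 24 arrays sharing 1 estimate of the spread and Benjamini-Hochberg adjustment over all transcripts at a threshold of 0.05. It replaces CircWave, which the study used and which was not available here. Correlations between mice used values centred on the time point and 100000 permutations of arrays within time points (NumPy 2.4.6). The fits were checked on simulated data. The genes, gene lists and tests were chosen with earlier results of these data known. Named are the 9 genes, the 3 genes most like each, the 2 genes with the smallest p in each pathway list and the first 2 of each marker list. Replicates are different mice with 1 array each, so that p-values rest on a spread that joins differences between animals, punches and arrays. The number of arrays limits the precision.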

Additional observations from a re-analysis of the deposited data

Results flagged for a closer look

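In 5 of the 54 groups of 4 mice (9 genes at 6 time points), 1 mouse lay far from the other 3 by Dixon's criterion, which chance alone meets in about 1 of 20 groups. Slc32a1 was 7.69 in ZT0 replicate 3, against 7.48 to 7.50 in the 3 other mice of that time. Gata3 was 7.13 in ZT16 replicate 4 and 6.77 to 6.82 in the others. Slc17a8 was 6.38 in ZT20 replicate 3 and 6.23 to 6.25 in the others. Pou4f1 was 4.36 in ZT0 replicate 1 and 4.59 to 4.63 in the others, and 4.92 in ZT20 replicate 4, where the others had 4.72 to 4.75.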

How the results depend on the processing

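None of the 9 genes passed an adjusted p under 0.05 in the cosine fit, the early light comparison or the time point differences under any alternative run (0 to 0 with each array left out in turn). The smallest adjusted p was that of Pou4f1 in the early light comparison, 0.0791 with array weights and 0.0878 with an array left out, in a range up to 0.826. The number of transcripts called there, 8, was 3 with the ordinary test, 14 with the replicate number as a block, 2 over all probe sets, 14 over transcripts above the median, 20 with quantile normalization, 45 with array weights and 0 for ZT4 and ZT8 against ZT16 and ZT20. With an array left out it was 2 to 134, the highest without ZT0 replicate 2, and 13 of the 24 arrays moved it by over 1.5 times. The 7 calls of the cosine fit were 4 over all probe sets, 17 after quantile normalization, 1 with time points as a factor, and 4 to 12 with an array left out (4 without ZT0 replicate 1, 12 without ZT8 replicate 3, 11 without ZT16 replicate 1). The causes were not tested.

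The early light difference changed sign in genes near 0. Gad1 had -0.023 and Gad2 -0.083 after quantile normalization, Gad1 -0.031 with array weights, and Slc17a7 0.0019 with array medians subtracted. For ZT4 and ZT8 against ZT16 and ZT20, Slc17a6 had 0.010 and Slc17a7 0.016, and with all 3 light time points Slc17a7 had 0.034. With an array left out, Gad1 ranged from -0.014 to 0.057, Gad2 from -0.017 to 0.024, Slc32a1 from -0.026 to 0.012, Gata2 from -0.0073 to 0.039 and Slc17a7 from -0.056 to 0.027. Of the pairs, 0 to 1 passed with an array left out (Gad2 with Pou4f1 without ZT0 replicate 3, r = -0.76, permutation, adjusted p = 0.0270). Of the relations with markers, 0 to 4 passed (4 without ZT0 replicate 4, 1 each without ZT16 replicate 2 and ZT16 replicate 3, 2 without ZT20 replicate 2).

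Mice of 1 replicate number had mean correlations of their deviations of -0.01, 0.05, -0.02 and 0.09 for numbers 1 to 4, against -0.01 for mice of different numbers. Single pairs reached 0.58 within number 4, against at most 0.33 between different numbers. Whether the number marks a shared batch was not tested. With the replicate block 0 of 9 genes and 0 of 36 pairs were called. Another probe set of the same gene could not be tried, since each gene has 1. Pou4f1 and Slc17a8 were left out by the filter at the median level. The table holds no background signal, and the deposited values hold no measure of how many neurons of each kind a punch contained.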

Other observations

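The 5 largest early light differences among the marker genes, by size and so chosen after their values were seen, ran in both directions. Cldn5, a tight junction gene of endothelial cells, had means of 7.30 in the early light and 7.08 in the early dark, a difference of 0.22 ± 0.06 (SE; unadjusted p = 0.00145, adjusted p = 0.226, limma). Tcf7l2, a transcription factor of thalamic neurons, had 7.94 in the early light and 8.14 in the early dark, a difference of -0.20 ± 0.11 (adjusted p = 0.530). Aldoc, a glycolytic enzyme of astrocytes, had 11.21 in the early light and 11.04 in the early dark (adjusted p = 0.375). The hypothalamic neuropeptide gene Pmch had 6.03 in the early light and 6.18 in the early dark (adjusted p = 0.622), and P2ry12, a microglial receptor gene, had 6.19 in the early light and 6.34 in the early dark (adjusted p = 0.615). None of these passed the threshold. Genes of 1 list could differ in sign, as Cx3cr1, also of microglia, had 7.44 in the early light and 7.29 in the early dark (adjusted p = 0.457).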
